A study of Saccharomyces cerevisiae with 7 samples.

Results

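The 10 genes described here encode factors that carry the yeast ribosome through elongation, together with the helicase eIF4A of initiation. They are TEF1, TEF2, TEF4, EFB1, YEF3, EFT1, EFT2, TIF1, TIF2 and HYP2. They were chosen by name from 5781 nuclear protein-coding open reading frames (ORFs) that had values. RNA polymerase II (RNAPII) on each gene was followed by chromatin immunoprecipitation and sequencing (ChIP-seq) in asynchronous log-phase yeast grown in YEP medium with glucose. The wild type (WT) was compared with *rtt109Δ* and with *rrp6Δ*, isogenic strains of the W303 background that each carry 1 gene deletion. Rtt109 acetylates histone H3 on lysine 56 before the histone enters chromatin, and Rrp6 is a nuclease of the nuclear RNA exosome. Cells were fixed with formaldehyde, chromatin was cut with micrococcal nuclease, and the antibody (8WG16 in the labels, given with another clone number in the study's methods) recognises the C-terminal domain of RNAPII. There were 7 samples, namely 2 IP libraries a genotype and 1 input that all genotypes shared.

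Elongation factors turn an initiated ribosome into a protein-making one. eEF1A brings each charged tRNA to the ribosome and is recharged with GTP by the eEF1B complex, eEF2 moves the ribosome along by a codon, the fungal ATPase eEF3 helps to clear the spent tRNA, and eIF5A relieves ribosomes that stall on difficult peptide bonds such as those between prolines. In initiation, eIF4A unwinds the leader of the mRNA so that the small subunit can scan it. These proteins are among the most abundant in growing yeast, several of them are made from duplicated genes, and their genes are known to be heavily transcribed in glucose.

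Each genotype had 1 track, in which the IP libraries were already combined, with the IP/input ratio in 228888 overlapping windows (100 bp long, 1 every 50 bp) of 15 chromosomes. The read depth is unknown. The spread of replicates cannot be seen, so every difference below is between single tracks, without a replicate check and without a p-value. Values are mean ratios per window, which makes genes of different length comparable. SDs are over the windows of a gene, which overlap, and give its unevenness, not its error. The median window was 1 in each track, so a genome-wide shift of the signal is lost. The *rtt109Δ* track had the narrowest range (SD over windows 0.661, against 0.897 in WT and 0.904 in *rrp6Δ*). The deleted genes were at 0.0178 (RTT109 in *rtt109Δ*, 1.36 in WT) and 0.118 (RRP6 in *rrp6Δ*, 1.01 in WT).

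RNAPII ratios over the coding region of all 10 genes were below the median ORF in WT and in *rrp6Δ*, and 6 of the 10 were above it in *rtt109Δ*. Percentiles give the place of an ORF among all 5781. The median percentile of the 10 genes rose from 5.77 in WT and 3.82 in *rrp6Δ* to 65.0 in *rtt109Δ*. The median ORF of the genome had WT, *rrp6Δ* and *rtt109Δ* ratios of 0.974, 0.982 and 0.942. Thus genes known for high output had low ratios between start and stop codon in WT. The reason was not tested, and the ratio is not read here as a rate of transcription.

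The eEF1A genes had almost the same ratio in WT. TEF1 (YPR080W, chromosome XVI, 700594 to 701970, plus strand of R64) had WT, *rrp6Δ* and *rtt109Δ* ratios of 0.576, 0.501 and 1.07. TEF2 (YBR118W, chromosome II, 477671 to 479047, plus strand) had 0.577 in WT, 0.463 in *rrp6Δ* and 0.983 in *rtt109Δ*. Both encode eEF1A, and for both *rtt109Δ* was the highest and *rrp6Δ* the lowest track. TEF1 went from percentile 4.999 in WT to 72.5 in *rtt109Δ*, and TEF2 from 5.09 to 57.4. The log2 ratio of *rtt109Δ* to WT, called the log2 change in *rtt109Δ* from here on, was 0.90 at TEF1 and 0.77 at TEF2.

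The genes of the eEF1B complex, which reloads eEF1A with GTP, had the highest WT ratios of the 10. EFB1 (YAL003W, chromosome I, 142174 to 143160, plus strand), the catalytic alpha subunit, had WT, *rrp6Δ* and *rtt109Δ* ratios of 0.940, 0.794 and 1.58. TEF4 (YKL081W, chromosome XI, 282891 to 284455, plus strand), a gamma subunit, had 0.890 in WT, 0.744 in *rrp6Δ* and 1.22 in *rtt109Δ*. These were also the most uneven genes in WT, with SDs over windows of 0.520 at EFB1 and 0.486 at TEF4. In *rtt109Δ* EFB1 reached percentile 97.9 of all ORFs, the highest place of the 10. The log2 change in *rtt109Δ* was 0.75 at EFB1 and 0.46 at TEF4.

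The gene of eEF3 differed most between genotypes. YEF3 (YLR249W, chromosome XII, 636780 to 639914, plus strand) had WT, *rrp6Δ* and *rtt109Δ* ratios of 0.595, 0.510 and 1.18. All 63 windows of this ORF were higher in *rtt109Δ* than in WT, and the log2 ratio of 0.99 (1.99-fold) stood at percentile 99.8 of all ORFs. HYP2 (YEL034W, chromosome V, 85676 to 86149, plus strand), the eIF5A gene used in the presence of oxygen, had 0.657 in WT, 0.625 in *rrp6Δ* and 1.24 in *rtt109Δ*. HYP2 rests on only 9 windows. All 9 were higher in *rtt109Δ*, and the log2 ratio was 0.92.

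The eEF2 genes had among the lowest ratios of the 10 in WT. EFT1 (YOR133W, chromosome XV, 575098 to 577626, plus strand) had WT, *rrp6Δ* and *rtt109Δ* ratios of 0.491, 0.450 and 0.881. EFT2 (YDR385W, chromosome IV, 1243230 to 1245758, plus strand) had 0.545 in WT, 0.464 in *rrp6Δ* and 0.923 in *rtt109Δ*. In WT they stood at percentiles 1.33 and 3.48 of all ORFs. Their log2 changes in *rtt109Δ* were 0.84 and 0.76, yet in *rtt109Δ* both remained below the median ORF, at percentiles 36.7 and 45.2.

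The eIF4A genes, the initiation factor among the 10, changed least in *rtt109Δ*. TIF1 (YKR059W, chromosome XI, 554987 to 556174, plus strand) had WT, *rrp6Δ* and *rtt109Δ* ratios of 0.642, 0.668 and 0.814. TIF2 (YJL138C, chromosome X, 153504 to 154691, minus strand) had 0.545 in WT, 0.525 in *rrp6Δ* and 0.667 in *rtt109Δ*. Their log2 changes in *rtt109Δ*, 0.34 and 0.29, were the smallest of the 10, with TEF4 next at 0.46. TIF2 moved only from percentile 3.39 to 5.67. TIF1 was also the only gene of the 10 whose *rrp6Δ* ratio was above WT, by 0.06 on the log2 scale.

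**Figure D1:**
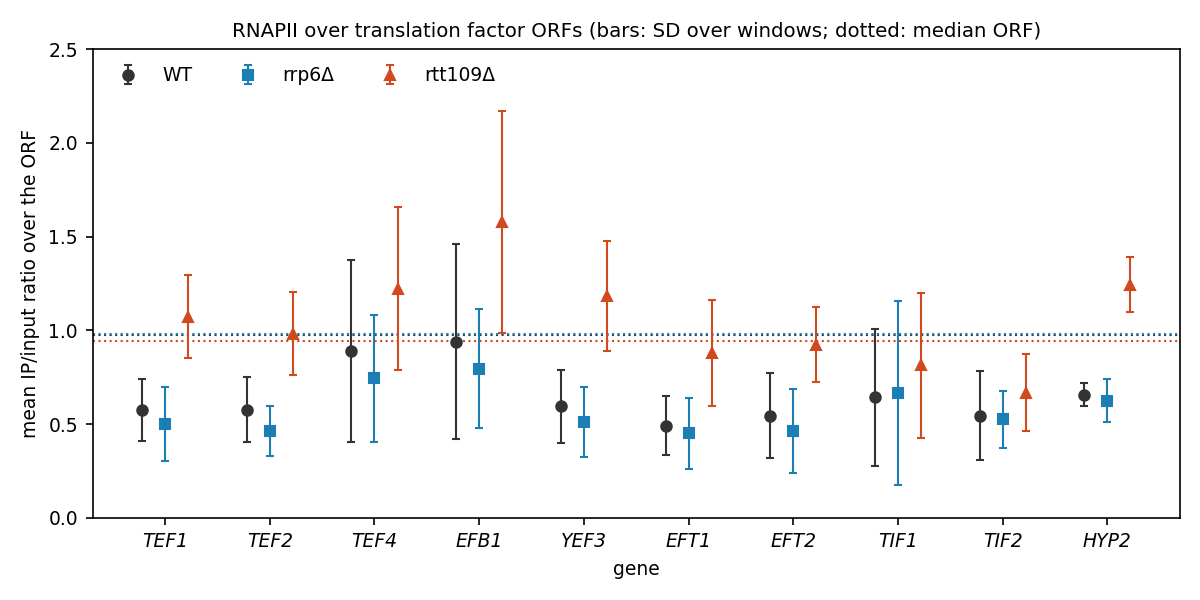
Mean IP/input ratio over the ORF of each of the 10 genes in WT, *rrp6Δ* and *rtt109Δ* (1 track each), with bars for the SD over the windows of the gene, which is not a replicate error. Every gene is below the median ORF in WT, and EFB1 is the highest in *rtt109Δ*, at 1.58.

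Within a track, the genes were ordered from EFT1 (0.491) to EFB1 (0.940) in WT, from EFT1 (0.450) to EFB1 (0.794) in *rrp6Δ*, and from TIF2 (0.667) to EFB1 (1.58) in *rtt109Δ*. No step between neighbours in these orders was larger than the larger of their SDs over windows. The largest steps were 0.233 from HYP2 to TEF4 in WT and 0.335 from HYP2 to EFB1 in *rtt109Δ*. These SDs are not errors of the means, so they cannot decide whether an order would hold. Without replicates the order of single neighbours is not resolved by these data.

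RNAPII ratios over the factor genes were higher in *rtt109Δ* than in WT. An ORF was called higher or lower when it differed by more than 1.3-fold, the limit used in the study. By this limit 8 of the 10 genes were higher (all but TIF1 and TIF2) and 0 lower, against 8.75% of all ORFs higher and 9.57% lower. The median log2 ratio of the 10 was 0.76, with a 95% order-statistic interval of 0.34 to 0.92 that takes the genes as independent and holds no replicate error. Over all ORFs the median was -0.05. Of the 328 windows of the 10 ORFs, 317 (96.6%) were higher in *rtt109Δ*, whereas in the median ORF 47.4% of windows were.

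The numbers of ORFs called in *rtt109Δ* depended on how the tracks are scaled. Division by a constant moves the factor genes as much as any other ORF. With 8 of the 10 already called as deposited, their count had little room to rise. As deposited, 506 ORFs were higher and 553 lower in *rtt109Δ*. Dividing each track by its mean window shifted every log2 change by 0.09, and then 796 ORFs were higher and 234 lower, with all 10 factor genes higher. After division by the median ORF, 643 were higher and 371 lower, with 9 of the 10 factor genes higher. TIF1 and TIF2 thus lie close to the limit. TEF4 depended on the setting, and its log2 change was 0.80 with the median over windows. With a pseudocount it was 0.31 and TEF4 was not called, leaving 7 higher. At a limit of 1.5-fold 7 were higher as well. For the pseudocount and the 1.5-fold limit no share of all ORFs is given here, so these counts have no background beside them.

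The change in *rtt109Δ* varied with the WT ratio over the genome, so the factor genes were also placed among ORFs of like level. All ORFs were ranked by their WT ratio and cut into 10 groups of about equal size. In the lowest group, which holds 7 of the 10 genes, the median log2 change in *rtt109Δ* was 0.30 and 38.2% of ORFs were called higher. In the highest group the median was -0.33. Within their own group YEF3 stood at percentile 98.1, TEF1 at 97.1, EFT1 at 96.0, TEF2 at 94.1 and EFT2 at 93.8. TIF1 and TIF2 stood at 56.5 and 47.3, near the middle of ORFs with a like WT ratio.

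Outside the lowest group, HYP2 stood at percentile 99.1 of the second group, TEF4 at 96.0 of the fourth and EFB1 at 99.5 of the fifth. These groups were cut on the WT ratio that also enters the change. When the groups were cut on the *rrp6Δ* ratio instead, the 8 called genes lay between percentiles 87.2 (TEF4) and 99.0 (EFB1), TIF1 at 76.1 and TIF2 at 48.5. When the ORF ratios of each mutant were replaced by the WT ratio of the same rank, so that all tracks had equal range, the median log2 ratio of the 10 genes was 0.84 and 8 were higher. The share of all ORFs higher after this replacement is not given here.

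**Figure D2:**
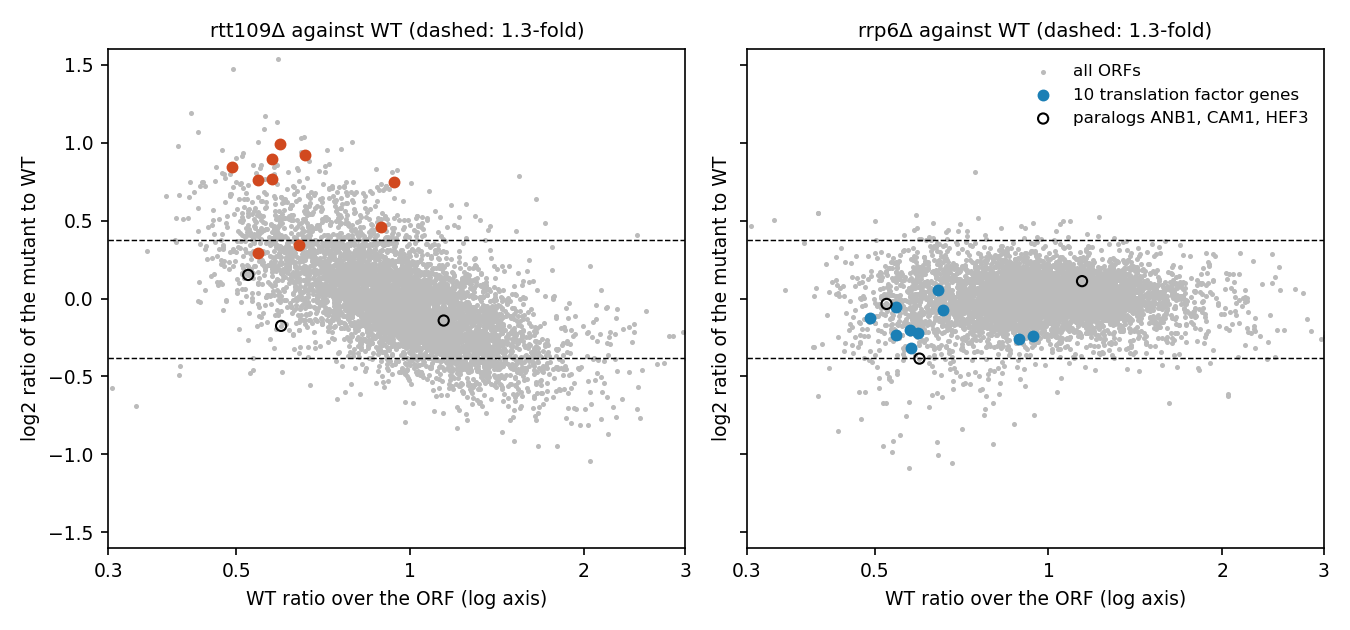
Log2 ratio of *rtt109Δ* to WT and of *rrp6Δ* to WT (vertical axes) against the WT ratio of the ORF (horizontal log axis), with all ORFs in grey and the 10 factor genes in colour. Outside the axes lie 16 and 14 ORFs. The factor genes sit below the median WT ratio, and all but TIF1 and TIF2 are over 1.3-fold higher in *rtt109Δ*.

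EFB1 lies on chromosome I, whose ORFs were high in *rtt109Δ*. The 94 ORFs of this chromosome had a median log2 ratio of 0.30, and 41 of them (43.6%) were higher, against 8.75% of all ORFs. On the 14 other chromosomes the medians ran from -0.09 to 0.06 and the shares called higher from 5.30% to 17.5%, with chromosome XII, which carries YEF3, at the top of both ranges. EFB1 ranked number 5 among them. SSA1, an Hsp70 chaperone gene that is the upstream neighbour of EFB1, was at 0.84. Over the nearest ORF on each side of the 10 genes, 20 ORFs in all, the median log2 ratio was -0.01, SSA1 was the only one called higher and 0 were lower. The factor gene was above its neighbour in 19 of these 20 pairs, and the exception was EFB1 beside SSA1.

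In *rrp6Δ* the coding regions of the factor genes had ratios slightly below WT. The log2 ratio was below 0 at 9 of the 10 genes, with a median of -0.21 (95% order-statistic interval -0.26 to -0.05), against 0.01 over all ORFs. TEF2 was the lowest at -0.32, followed by TEF4 at -0.26 and EFB1 at -0.24. With the median over windows TEF2 was at -0.41, EFB1 at -0.14 and TEF4 at -0.04. No gene passed the 1.3-fold limit, with 0 of 10 lower and 0 higher, against 1.82% of all ORFs lower and 0.709% higher. Of the 328 windows, 229 (69.8%) were lower in *rrp6Δ*, against 50.5% in the median ORF. A difference of this size between single tracks cannot be told apart from the spread of replicates that are not seen here.

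Both mutants were set against the same WT track. In *rtt109Δ* against *rrp6Δ*, which leaves WT out, 8 of the 10 genes were higher, against 11.3% of all ORFs, with a median log2 ratio of 0.99. YEF3 was at 1.21, TEF1 at 1.10, TEF2 at 1.09, and TIF1 and TIF2 at 0.29 and 0.35.

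Along the gene, the difference between *rtt109Δ* and WT lay in the coding region and was smaller on both sides of it. Each ORF was cut into 3 parts of equal length, and the 400 bp before the start codon and the 300 bp after the stop codon were taken as flanks. The median log2 ratio of the 10 genes was 0.27 upstream and 0.18 downstream, and 0.74, 0.91 and 0.69 in the first, middle and last part of the ORF. Over all ORFs the median was -0.06 upstream and -0.26 downstream, and 0.04, -0.02 and -0.12 in these parts. In each of the 10 genes the log2 ratio of the ORF was above that of either flank. By size alone TIF1 was an exception, with -0.77 downstream against 0.34 over its ORF.

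The lowest windows of the coding regions were also higher in *rtt109Δ*. The lowest WT window of the 10 ORFs was at EFT1 (chromosome XV, 575351 to 575450), with 0.171, and the lowest windows of EFT2 and TIF1 were at 0.214 and 0.255. In *rtt109Δ* the lowest windows of these genes were at 0.416, 0.585 and 0.422. At HYP2, the most even gene, the same window (chromosome V, 85701 to 85800) was the lowest in all 3 tracks, with 0.577 in WT, 0.484 in *rrp6Δ* and 1.01 in the *rtt109Δ* track. At TIF1, TIF2 and EFB1 the place of the lowest window was likewise shared by the 3 tracks, whereas at TEF2, TEF4, YEF3, EFT1 and EFT2 it differed in each. TIF1 and TIF2 had the smallest share of windows above WT in *rtt109Δ*, 20 of 24 and 18 of 23, against 31 of 32 at TEF4, 50 of 51 at EFT2 and every window at the other genes.

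The middle part passed the limit in all 10 genes, TIF1 (0.53) and TIF2 (0.53) included, against 14.2% of all ORFs. It was the part with the largest log2 ratio in 7 genes, and the first part was the largest in TEF1 (1.11), YEF3 (1.10) and EFT1 (0.89). TEF1, TEF2, EFB1, YEF3, EFT1, EFT2 and HYP2 were higher by more than 1.3-fold in each of the 3 parts, 7 of 10 genes against 4.16% of all ORFs. Of the 30 part values 29 were above 0, and the exception was the last part of TIF2 at -0.08.

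Upstream of the start codon 3 of the 10 genes were higher in *rtt109Δ*, against 7.56% of all ORFs. These were EFB1 (0.891 in WT, 1.38 in *rtt109Δ*), TEF1 (1.05 and 1.47) and HYP2 (0.834 and 1.15). At EFT1 the upstream ratio was 1.06 in both tracks, while its ORF differed 1.79-fold. Downstream of the stop codon 3 of 10 were higher, against 4.30% of all ORFs, namely YEF3 (1.67 in WT, 2.41 in *rtt109Δ*), HYP2 (1.82 and 2.56) and TEF2 (1.67 and 2.21). TIF1 went the other way downstream, from 2.69 in WT and 2.32 in *rrp6Δ* to 1.58 in *rtt109Δ*, a log2 ratio of -0.77 (37.1% of all ORFs were lower downstream) that was the only fall past the limit in *rtt109Δ* among the ORFs, parts and flanks of the 10 genes. Downstream flanks hold 3 (TIF2) to 6 windows each. At TEF1, TEF2, YEF3, TIF1, TIF2 and HYP2 some windows of this flank are absent from all tracks, so values after the stop codon leave these positions out. The downstream flanks of HYP2, TEF1 and TEF2 reach into the next ORF (MTC7, GRS2 and MUD1, which lie 29, 143 and 290 bp away). The upstream flanks of HYP2, EFT1, TIF2 and TIF1 likewise reach into UTR5, VPS17, GLG2 and GLG1, at 130, 267, 293 and 366 bp.

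**Figure D3:**
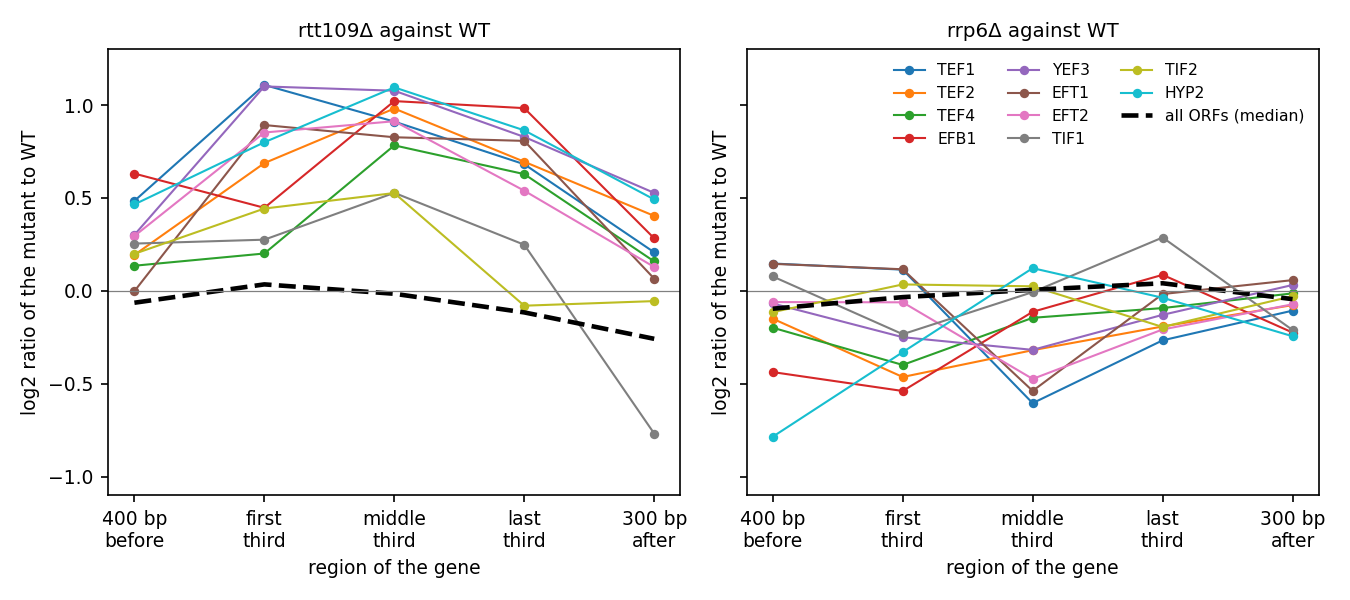
Log2 ratio of *rtt109Δ* to WT and of *rrp6Δ* to WT in the upstream flank, the 3 parts of the ORF and the downstream flank, with a line for each of the 10 genes and the median over all ORFs. The *rtt109Δ* lines are highest inside the ORF, with a median of 0.91 in the middle part, and TIF1 drops to -0.77 downstream.

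In *rrp6Δ* the parts of the ORF that were lower by more than 1.3-fold differed from gene to gene. They were the first part of EFB1 (-0.54), TEF2 (-0.46) and TEF4 (-0.40), against 5.26% of all ORFs, and the middle part of TEF1 (-0.60), EFT1 (-0.54) and EFT2 (-0.47), against 3.63%. The last part passed the limit in 0 of the 10 genes, near the 4.71% of all ORFs. The upstream flank was lower in 2 genes, against 5.45% of all ORFs. Upstream of HYP2 the ratio fell from 0.834 in WT to 0.484 in *rrp6Δ* (log2 change -0.78), and upstream of EFB1 it was 0.891 and 0.659 (-0.44). UTR5, an ORF on the other strand that starts 130 bp from HYP2 and so reaches into its upstream flank, was lower in *rrp6Δ* by 1.05 on the log2 scale (ratio 0.681 in WT, 0.328 in *rrp6Δ*). MTC7, which begins 29 bp after HYP2, was at -0.61. The coding region of HYP2 between them was at -0.07, with 0.657 in WT and 0.625 in *rrp6Δ*.

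The genes had their highest ratios outside the coding region. Of the windows from 400 bp before the start codon to 300 bp after the stop codon, the highest lay after the stop codon in 8 of the 10 genes in WT and in *rrp6Δ* and in 7 in *rtt109Δ*. In the others it lay before the start codon, and in no gene and no track did it lie in the ORF. At EFB1 the window at 143151 to 143250 of chromosome I, just after the stop codon, reached 6.81 in WT, 5.66 in *rrp6Δ* and 8.08 in the *rtt109Δ* track. At EFT1 the window at 577701 to 577800 of chromosome XV was at 6.18, 6.51 and 6.82. The highest window was the same in all 3 tracks at 8 genes, TEF1 and TIF1 being the exceptions.

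The step from ORF to downstream flank was steep in these genes and less so in *rtt109Δ*. The ratio of downstream flank to ORF had a median of 3.85 in WT and 3.62 in *rrp6Δ* but 2.41 in *rtt109Δ*, against 2.00, 1.94 and 1.72 over all ORFs. EFT1 (6.33) and EFT2 (6.28) had the steepest steps in WT, at percentile 99.5 of all ORFs. TEF4 was the least steep at 2.09, near the median ORF. The ratio of upstream flank to ORF had a median of 1.97 in WT and 2.24 in *rrp6Δ* but 1.36 in *rtt109Δ*, against 1.46, 1.37 and 1.43.

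By distance from the start codon, the median of the 10 genes at 100 bp before it rose from 1.28 in WT to 1.40 in *rrp6Δ* and 1.93 in *rtt109Δ*, against medians of 1.47 to 1.4999 over all ORFs. At 350 bp inside the ORF it was 0.390, 0.446 and 0.843, against 0.745, 0.739 and 0.800. At this position the factor genes lay below the median ORF in WT and *rrp6Δ* and slightly above it in *rtt109Δ*. The gap varied along the ORF, and at 200 bp the medians of the factor genes were 0.588, 0.696 and 1.24, against 0.819, 0.852 and 0.872. After the stop codon the order of the tracks changed with distance. At 50 bp the median over the 9 genes with a window there stood at 3.28 in WT, 3.20 in *rrp6Δ* and 2.84 in *rtt109Δ*, in each case the value of TIF2. At 300 bp it was 1.74, 1.58 and 1.86, and as a mean over the downstream flank 8 of the 10 genes were higher in *rtt109Δ* than in WT.

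**Figure D4:**
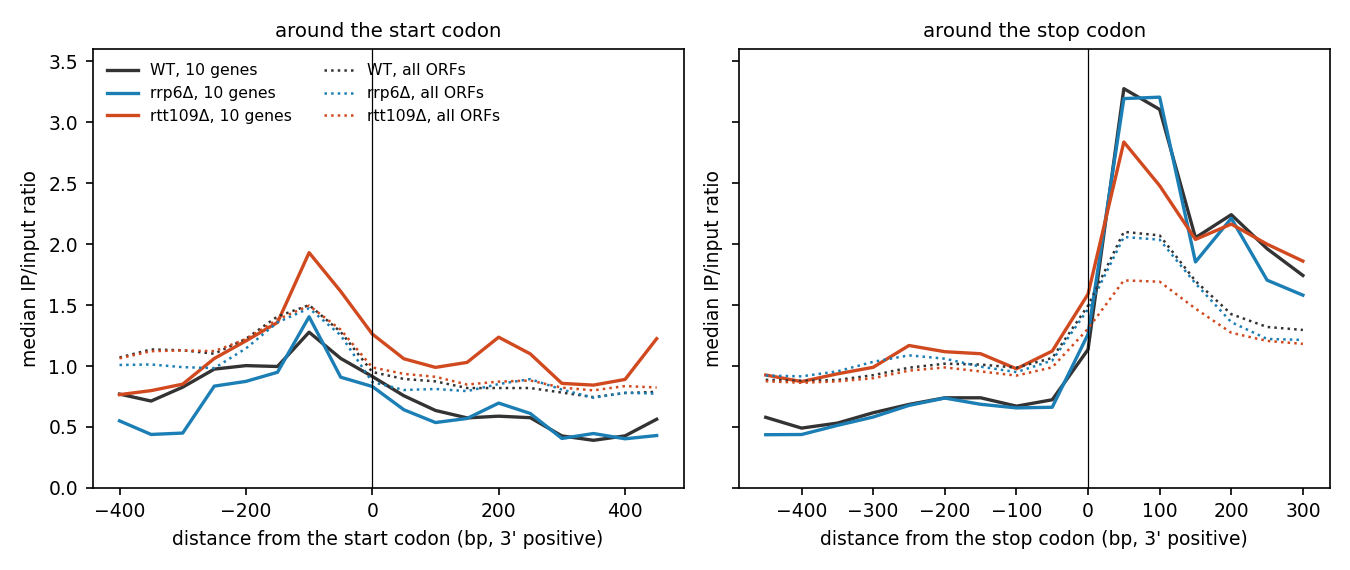
Median IP/input ratio by distance from the start codon (left) and from the stop codon (right), over the 10 factor genes (solid lines) and over all ORFs (broken lines), in WT, *rrp6Δ* and *rtt109Δ*. At 350 bp inside the ORF the factor genes are at 0.390 in WT and 0.843 in *rtt109Δ*, while all ORFs are at 0.745 and 0.800.

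EFB1 and TEF4 carry a small nucleolar RNA (snoRNA) gene inside the annotated coding span, each known to lie in the intron of its host gene. SNR18 lies at 142367 to 142468 of chromosome I in EFB1, and SNR38 at 283185 to 283279 of chromosome XI in TEF4. Windows over SNR18 averaged 1.28 in WT, 0.929 in *rrp6Δ* and 1.85 in *rtt109Δ*, and the windows after it 0.723, 0.725 and 1.45. Windows over SNR38 averaged 1.81, 1.29 and 1.99, and those after it 0.705, 0.630 and 1.10. So the WT ratio of both genes was highest in and before the snoRNA gene, and beyond it the ratio was nearer to the 0.657 of HYP2 and the 0.642 of TIF1.

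The change also differed along these genes. In *rtt109Δ* the log2 ratio to WT was 0.33 before SNR18, 0.53 over it and 1.00 after it, and 0.23 before SNR38, 0.13 over it and 0.64 after it. In *rrp6Δ* it was -0.64 before SNR18, -0.46 over it and 0.00 after it, and -0.27 before SNR38, -0.49 over it and -0.16 after it. Reads from the 4 windows over each snoRNA gene cannot be split between the snoRNA and its host gene, since both lie on the same stretch of DNA. Without these windows the log2 change in *rtt109Δ* was 0.82 at EFB1 and 0.55 at TEF4.

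TEF1 and TEF2, EFT1 and EFT2, and TIF1 and TIF2 are pairs whose copies are known to encode the same protein from nearly the same coding sequence. Reads from such copies can be assigned to either, and how the authors placed them is not given in the sources used here, so the coding values of a pair are not independent. The coding regions of the copies were alike in WT, with a log2 ratio of TEF1 to TEF2 of 0.00 (-0.003), of EFT1 to EFT2 of -0.15, and of TIF1 to TIF2 of 0.24. The log2 change in *rtt109Δ* differed between copies by 0.13, 0.08 and 0.05 over the whole ORF. Within single parts of the ORF the copies differed more, by up to 0.42 in the first part of TEF1 and TEF2. In *rrp6Δ* the log2 change differed there by 0.58, and by 0.48 in the last part of TIF1 and TIF2. Position by position, the profiles of copies had a Pearson correlation of 0.593 to 0.755 in WT, 0.689 to 0.895 in *rrp6Δ* and 0.565 to 0.808 in *rtt109Δ*, over 23 to 50 overlapping windows. For the 12 pairs of non-copies among these 6 genes, the median correlation was 0.463, 0.294 and 0.274. Their values ran from 0.343 to 0.694 in WT, -0.039 to 0.538 in *rrp6Δ* and 0.053 to 0.569 in *rtt109Δ*. The ranges of copies and non-copies thus overlapped in WT and in *rtt109Δ*.

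In WT the flanks, where the copies are less alike in sequence, differed more than the whole coding regions in the TIF and TEF pairs. This did not hold throughout in *rrp6Δ*. There the log2 ratio of TIF1 to TIF2 was 0.23 downstream, 0.35 over the ORF and 0.66 in its last part. TIF1 had 1.36 upstream and TIF2 0.780 in WT, a log2 ratio of 0.80, which was 0.99 in *rrp6Δ* and 0.86 in *rtt109Δ*. TEF1 had 2.40 downstream and TEF2 1.67 in WT, a log2 ratio of 0.52. Upstream in WT TEF1 had 1.05 and TEF2 1.47, but with the median over windows in place of the mean the order of these copies turned around (log2 ratio -0.48 with the mean, 0.19 with the median). The same held for EFT1 and EFT2 upstream (-0.23 with the mean, 0.43 with the median).

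The upstream flanks of the eEF2 copies differed by a peak. The highest window upstream of EFT2 stood at 4.25 in WT, 4.76 in *rrp6Δ* and 4.89 in *rtt109Δ*, and that upstream of EFT1 was 1.86, 2.62 and 1.40. Thus the EFT2 peak was present in every track and had no counterpart of its height at EFT1. Downstream of TIF1 and TIF2 the copies moved apart in *rtt109Δ*, at -0.77 against -0.05 on the log2 scale relative to WT, while their coding regions differed from WT by 0.34 and 0.29.

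**Figure D5:**
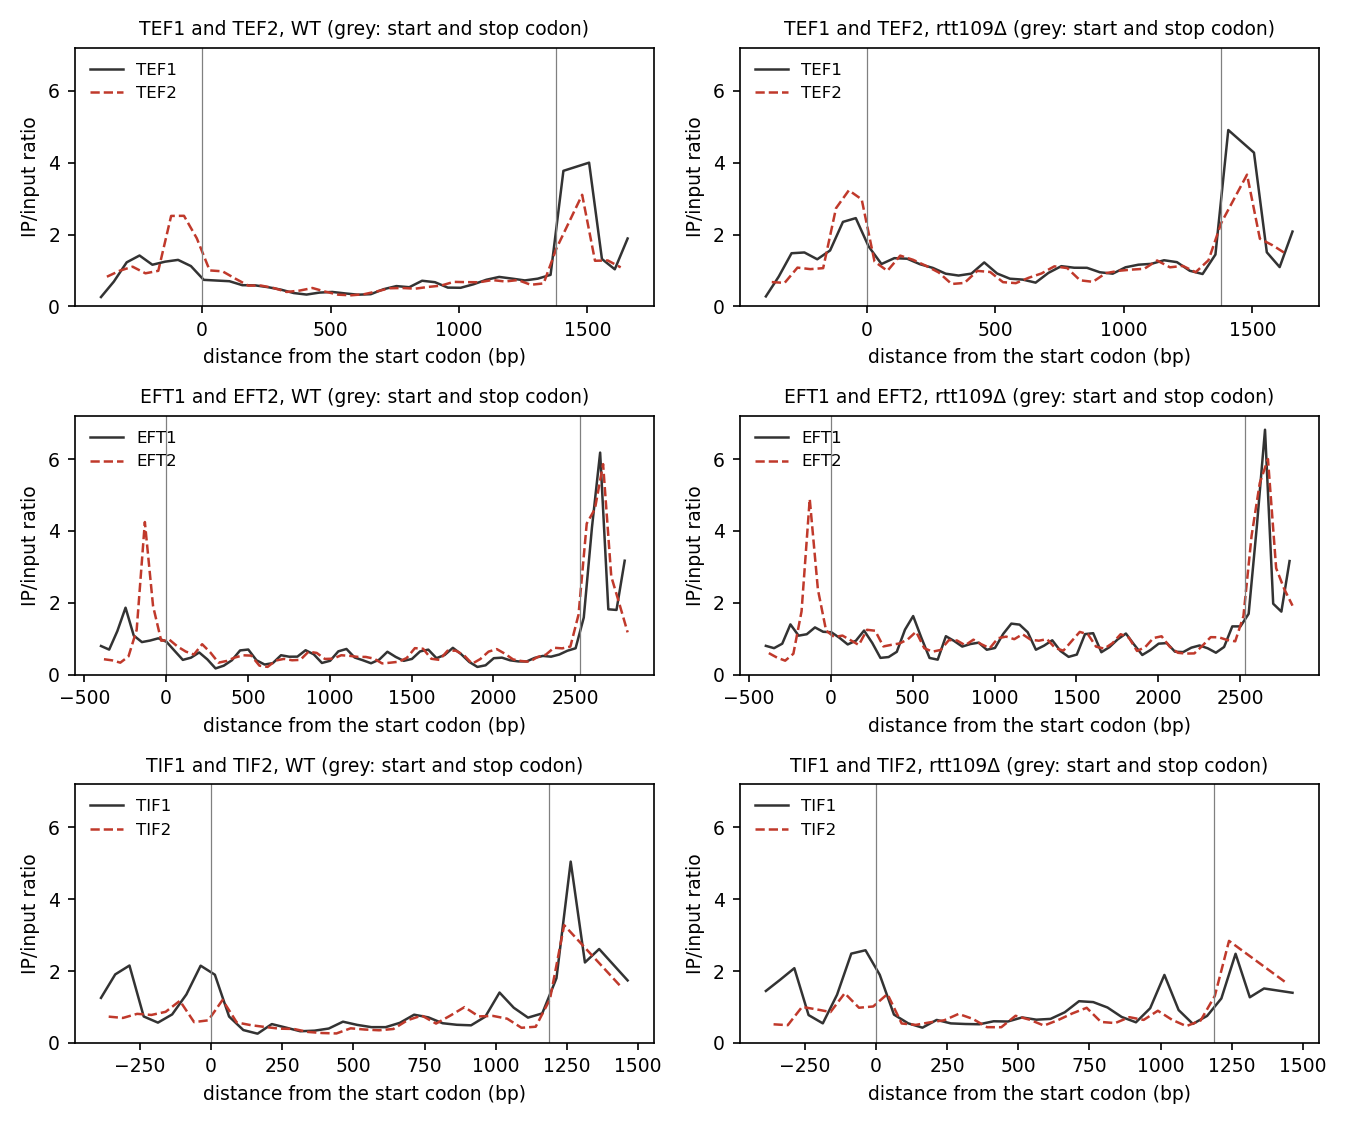
IP/input ratio in each window of the copies of a pair, by distance from the start codon, with the copies of a pair drawn in the same panel. The coding regions of the copies overlap, while EFT2 has an upstream peak of 4.25 in WT and the mean over the upstream flank is 1.36 at TIF1 and 0.780 at TIF2.

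Diverged paralogs that are used less, or under other conditions, did not pass the limit over the whole ORF in *rtt109Δ*. ANB1 (YJR047C), the eIF5A gene that yeast uses when oxygen is low, had 0.598 in WT, 0.458 in *rrp6Δ* and 0.529 in *rtt109Δ*. Its log2 change in *rtt109Δ* was -0.18, against 0.92 at HYP2, and it stood at percentile 3.63 of ORFs with a like WT ratio. In *rrp6Δ* ANB1 was lower by 0.39 on the log2 scale in the ORF and by 0.96 upstream. CAM1 (YPL048W), the other gamma subunit gene of eEF1B, had 0.524, 0.512 and 0.582, a log2 change in *rtt109Δ* of 0.15 against 0.46 at TEF4. HEF3 (YNL014W), a second eEF3 gene that is little expressed in vegetative growth, had 1.14, 1.24 and 1.04, a log2 ratio of -0.14 against 0.99 at YEF3. Among ORFs with a like WT ratio CAM1 stood at percentile 25.9 and HEF3 at 56.6. Within these genes the last part of ANB1 (-0.46) and the downstream flank of CAM1 (-0.67) were lower in *rtt109Δ* by more than 1.3-fold. These are differences between single tracks and were not tested.

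Other genes of translation were described from a list of 48, of which 46 had values and 2 (DPH1 and EFM4 on chromosome IX) were not analysed here. Their median log2 change in *rtt109Δ* was 0.17, with 10 higher and 2 lower. After division by the mean window 16 were higher and 1 lower. Among 27 other initiation factors 7 were higher and 2 lower, among 8 elongation and termination factors 3 were higher and 0 lower, and among 11 genes whose products modify the factors 0 passed the limit in either direction. Over all ORFs 8.75% were higher and 9.57% lower, so 0 of 11 is near the background. The largest rises were at FUN12 (0.89), the eIF5B gene, which lies on chromosome I where the median ORF was at 0.30, DED1 (0.84), a helicase of scanning, RPG1 (0.70), a subunit of eIF3, STM1 (0.57), a ribosome-binding protein, and NEW1 (0.51), an ATPase related to eEF3. DED1, with 0.461 in WT, 0.388 in *rrp6Δ* and 0.829 in *rtt109Δ*, was close to EFT1 in level and in change.

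Of the 46 genes 2 (4.35%) were lower in *rtt109Δ*, a smaller share than the 9.57% of all ORFs. SUI1 (eIF1, on 6 windows) was at -0.41 and TIF11 (eIF1A, on 9 windows) at -0.50, and TIF11 was named after its value was seen. The count was 1 after division by the mean window or by the median ORF, and 0 at a limit of 1.5-fold. In *rrp6Δ* the median of the 46 was -0.05. There 0 were higher, against 0.709% of all ORFs, and 2 (4.35%) were lower, against 1.82%. These were SUI1 (-0.44) and ANB1 (-0.39).

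Other highly transcribed gene sets had lower WT ratios than the median ORF as well. The 19 glycolytic genes had a median ratio of 0.621 in WT and 0.979 in *rtt109Δ*, close to the 0.586 and 1.03 of the factor genes. Of these, 17 (89.5%) were higher in *rtt109Δ* and 0 lower (median log2 ratio 0.65). Over all ORFs 8.75% were higher and 9.57% lower. The glycolytic median of 0.621 lies in the lowest group by WT ratio, where 38.2% of ORFs were called higher. The 133 genes of cytosolic ribosomal proteins had a median of 0.820 in WT and 1.04 in *rtt109Δ*, with 68 higher and 2 lower (median log2 ratio 0.39). In *rrp6Δ* the median log2 ratios of the glycolytic and ribosomal protein genes were -0.12 and -0.11, against -0.21 at the factor genes. The differences between these sets were not tested.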

How the data were processed

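The authors sequenced 2 IP libraries for each genotype and 1 input, and deposited a ratio of IP to input for each genotype in windows of 100 bp. The submitters' processing notes name FastQC, Bowtie2, SAMtools, deepTools, bedtools and the build sacCer3, without versions. How replicates were combined, how the ratio was scaled and how reads with several matches were placed are not given in the sources used here. Micrococcal nuclease cuts depend on chromatin, which can enter the ratios.

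Positions came from the RefSeq annotation of R64, which is the assembly of sacCer3, with 6002 ORFs. Of these, 214 on chromosome IX were not analysed here and 7 others had no value. A window belonged to a region when its centre lay in it. Region values were means of windows, with no pseudocount and no filter, and log2 ratios were taken between genotypes. With 1 track a genotype, no test was possible. The members, lists and comparisons were chosen with earlier results of these data known. All 10 genes were named, with RTT109 and RRP6, the paralogs, neighbours whose ORF lies in a described flank, and at most the 5 other translation factor genes farthest from 0 among those past 1.3-fold in each mutant. SSA1, MTC7 and TIF11 were added after their values were seen. EFM7 was matched as NNT1, and TIF32 is RPG1. Alternatives were other scalings, the median over windows, a pseudocount, a background subtraction, windows wholly inside the ORF, other flanks, a limit of 1.5-fold and a filter on low ORFs. The transfer of ranks and the removal of snoRNA windows were added after seeing the data. Scripts were tested on simulated data with matplotlib 3.10.9, scipy 1.17.1, pandas 2.3.3 and numpy 2.4.6 under Python 3.11.15.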

Additional observations from a re-analysis of the deposited data

How the results depend on the processing

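Of 299 recomputed values, 240 stayed within the range of the gene parts, genes or tracks behind the reported value or, for counts, within 1.5 times it, and 9 of the 299 had the other sign. These include EFT1 (0.04) and TIF2 (0.03) by rank and HYP2 (0.09) after background subtraction, all in *rrp6Δ*. TIF2 in *rrp6Δ* also turned to 0.20 with the median over windows and to 2.21 after background subtraction. Some of the 299 could not differ, so 240 does not measure robustness. Division, a pseudocount and the transfer of ranks keep the percentiles of a track. Division by a constant also shifts every log2 ratio alike. Of the 69 recomputed log2 ratios of *rtt109Δ* to WT of single factor genes, 69 were above 0 and 61 over 1.3-fold, and for *rrp6Δ* 57 of 69 were below 0. The subtracted background was percentile 10 of the windows of a track (0.539 in WT, 0.499 in *rrp6Δ*, 0.600 in *rtt109Δ*). Subtraction left 7 of the 10 genes (EFT1, EFT2 and TEF2 dropped out), with a median of 2.45 in *rtt109Δ* and of -0.44 in *rrp6Δ*, where 2 were higher and 4 lower. The WT ratios of TEF1 (0.576) and TIF2 (0.545) lie close to this background. Their log2 changes in *rtt109Δ* became 3.66 and 3.58, which rest on small remainders in WT. A pseudocount lowered the median of the 10 genes in *rtt109Δ* to 0.47, with 7 higher, and in *rrp6Δ* to -0.11, and ranks gave -0.09 in *rrp6Δ*. With the median over windows 1 factor gene was lower in *rrp6Δ*.

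Among the other translation factors, the count higher in *rtt109Δ* was 16 with division by the mean over windows, 3 with a pseudocount, 3 at 1.5-fold and 0 among the 13 ORFs at or above the median WT level, where their median reversed to -0.14 and 0 of the 10 factor genes were left. The count lower was 1 with division by the mean over windows, 1 with the median over windows, 1 with division by the median ORF, 0 with a pseudocount, 0 at 1.5-fold and 10 after background subtraction. In *rrp6Δ* their median was -0.10 with the median over windows and reversed to 0.031 after background subtraction, with 7 higher. The count lower was 1 with the median over windows, 1 by rank, 1 at or above the median WT level, and 0 with a pseudocount, with windows wholly inside the ORF and at 1.5-fold. The log2 ratio of copies upstream in WT was 0.19 for TEF1 to TEF2 (reversed) and 0.43 for EFT1 to EFT2 with the median over windows, and -1.08 for EFT1 to EFT2 and 0.58 for TIF1 to TIF2 with flanks of 200 bp. Downstream it was 0.52 for TIF1 to TIF2 with the median over windows. The causes were not tested.

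No paired analysis was possible because the replicates are combined in 1 track a genotype, which also prevented leaving out a replicate. Coding exons alone, windows with recurring sequence and promoter motifs were planned and not run, since no genome sequence was used here. The unknown depth means that no counting error can be attached to windows at low ratios.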
